A study of Mus musculus with 4 samples.

Results

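In captured heart RNA, 5 genes of fatty acid uptake and beta-oxidation were followed: Cd36, Lpl, Acadm, Acadl and Hadha. They were taken by gene name from a table of counts per region, and lines with the same chromosome, listed gene, start and counts were taken as 1 region. This gave 8 of the 558 distinct regions in the table and 5 of its 456 overlapped genes. Cd36 had 2 regions, Lpl 3, and Acadm, Acadl and Hadha 1 each, so 5 regions belonged to uptake genes and 3 to oxidation genes.

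The libraries came from whole hearts of C57BL/6 mice, with 2 from NAT10 knockout and 2 from control hearts. Both groups carried the treatment label HFD+STZ+Exercise, in a series titled for diabetic cardiomyopathy, and no untreated or unexercised hearts were set against them. The series text describes RNA pulled down with an antibody against N4-acetylcytidine (ac4C), a modified RNA base that the acetyltransferase NAT10 makes. The labels do not state how or in which cells NAT10 was removed, the age and sex of the mice, or whether each library came from its own animal. Counts of Nat10 were not analysed here, and the knockout label was therefore not checked against them. Libraries without capture were not used here either, and the amount of an RNA and its ac4C content cannot be told apart in these counts. In whole heart, fewer cells of a type and less RNA per cell cannot be told apart either.

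Heart muscle draws much of its energy from fatty acids. Lipoprotein lipase (Lpl) splits the triglycerides of circulating lipoproteins at the capillary wall and is made in the heart mainly by the muscle cells, and the membrane protein Cd36 helps the freed fatty acids into the cell. Inside the mitochondrion they are shortened by beta-oxidation. The long-chain and medium-chain acyl-CoA dehydrogenases (Acadl and Acadm) carry out the first step of each round, and Hadha, the alpha subunit of the trifunctional protein, carries out the hydration and the second oxidation of long chains.

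Antibody maps of ac4C in human cells described a motif of repeated cytidines, each followed by any 2 bases, written CNNCNNCNN. The longest such run in each coding sequence is therefore shown, read on the transcript strand from GENCODE M21 transcripts, with up to 15 coding bases on either side and the cytidines of the run in capitals. Positions of the regions themselves were not used, so whether a run lies inside a captured region is not known.
Lpl: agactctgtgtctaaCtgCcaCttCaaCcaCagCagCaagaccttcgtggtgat
Cd36: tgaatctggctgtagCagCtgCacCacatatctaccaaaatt
Acadm: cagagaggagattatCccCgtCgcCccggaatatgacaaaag
Acadl: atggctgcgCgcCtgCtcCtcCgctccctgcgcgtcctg
Hadha: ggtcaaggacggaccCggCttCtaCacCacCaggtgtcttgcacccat

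On GRCm38 the Lpl stretch lies in exon 2 on the plus strand, at chr8:68887537-68887590, and the Acadl stretch in exon 1 on the minus strand, at chr1:66863211-66863249. The Acadm stretch lies in exon 3 on the minus strand, at chr3:153939077-153939118. The Cd36 stretch joins exon 5 (chr5:17814673-17814689) to exon 6 (chr5:17814268-17814292), and the Hadha stretch joins exon 15 (chr5:30122621-30122627) to exon 16 (chr5:30122178-30122218), both on the minus strand. The run held 8 cytidines in Lpl, 6 in Hadha, 5 in Acadl and 4 in both Cd36 and Acadm. Of 314 genes in the table with a complete coding sequence, 27.1% had a run at least as long as that of Lpl, 65.6% as that of Hadha, 83.8% as that of Acadl and 96.5% as those of Cd36 and Acadm. Over 21571 genes of the annotation these shares were 22.4%, 55.4%, 77.9% and 94.9%. Lpl also had the highest share of codons with cytidine at the third position among the 5, at 34.1%, followed by Hadha and Acadl at 27.6% each, Acadm at 23.9% and Cd36 at 22.2%. The median over the genes in the table was 31.4%, so Lpl lay above it and the other 4 below. The triplet CCG, which base-resolution mapping of ac4C has tied to the acetylated cytidine, occurred 2 times in the coding sequence of Cd36 (1.41 per kb) and 9 times in that of Lpl (6.32 per kb). It occurred 15 times in Acadm (11.8 per kb), 13 times in Acadl (10.1 per kb) and 17 times in Hadha (7.42 per kb), against a median of 10.1 per kb over the genes in the table. These are counts of letters in the reference and do not show where ac4C is.

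The counts in the table summed to 920818 and 693922 in the knockout libraries and to 674687 and 686323 in the control libraries. The 8 regions held 0.584% and 0.444% of the counts in knockout, and 0.382% and 0.409% in control. Most counts of these regions were even numbers (26 of 32), as were most low counts in the table, so they are not counts of independent molecules. In the GRCm38 annotation, 5 of 338 genes checked began at the table's start position, although the submitters' processing notes name mm10, which is the same build. Positions are therefore printed as the table gives them, and their build is unknown. Of the ventricular muscle markers 8 of 11 were overlapped, with summed levels of 78380 and 86035 normalised counts in knockout and 79022 and 78608 in control. The normalised count is CPM over the counts in the table, scaled with TMM factors. Most of that sum came from Myh6 and Ttn, with log2 fold changes of knockout over control of 0.0068 and 0.011. Actc1 (merged with A530058N18Rik) stood at 0.23, Ryr2 at 0.088 and Mb at -0.092 (edgeR adjusted p = 0.402, 0.748 and 0.754). Of the 8, 3 rose in knockout by edgeR's gene test, where 2.82% of all genes did. They were Myl2 (0.56, adjusted p = 0.000737), Myl3 (0.70, adjusted p = 1.92e-05) and Pln, in a region set shared with Cep85l and Gm47644 (0.73, adjusted p = 5.11e-05). With 1 library left out these stood at 0.50 to 0.61, 0.64 to 0.74 and 0.67 to 0.78. By edgeR, Myl2 lost its call without control replicate 1 and without knockout replicate 2 (adjusted p = 0.113 and 0.056), Myl3 without knockout replicate 2 (adjusted p = 0.0687) and Pln without control replicate 1 (adjusted p = 0.138). Myl2 and Myl3 also lost it with library totals alone (adjusted p = 0.0893 and 0.0833) and with scaling to 18S (adjusted p = 0.348 and 0.286). Their part in the values of the 5 genes was not tested.

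None of the 8 regions passed the test between knockout and control hearts, in which 3.94% of all regions passed. The uptake genes stood on opposite sides: both Cd36 regions were lower on average in the knockout libraries, at 0.88 and 0.74 times control (region 1 stood at 0.00073 on the log2 scale with scaling to 18S), and all 3 Lpl regions were higher, at 1.15 to 1.30 times control. Among the oxidation genes Acadm was higher on average, and Acadl and Hadha were close to control. The question put to these values was whether uptake genes and oxidation genes differed between the groups, and the opposite signs lay within the uptake genes, with neither gene past the test.

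The table places Cd36 on chromosome 5, from 17986688 to 18054790 on the minus strand. Region 1, the Cd36 region with more counts, had 236 and 167 counts in the knockout libraries, against 174 and 179 in the control libraries. After scaling these were 216 and 262 normalised counts in knockout and 281 and 261 in control. The groups overlapped, since knockout replicate 2 was level with control replicate 2. Region 2 had 198 and 104 counts in knockout, against 162 and 142 in control. Its normalised counts were 181 and 163 in knockout and 262 and 207 in control, with both knockout libraries below both controls. The log2 fold change of knockout over control was -0.19 ± 0.17 (SE) for region 1, with an adjusted p of 0.575 (edgeR quasi-likelihood test, Benjamini-Hochberg over all 558 regions). For region 2 it was -0.43 ± 0.18 (95% interval -0.80 to -0.06, edgeR adjusted p = 0.172). With 1 library left out, region 1 ranged from -0.32 (without knockout replicate 2) to -0.050 (without knockout replicate 1), and region 2 from -0.60 (without control replicate 2) to -0.25 (without control replicate 1). Region 2 stood low in the distribution of fold changes, with 8.78% of all regions below it, against 28.0% below region 1. With both regions summed, Cd36 averaged 416 ± 32.8 normalised counts in knockout and 500 ± 56.4 in control (SD, n = 2 each). That is a log2 fold change of -0.27 ± 0.14, with an interval from -0.55 to 0.00567 and an adjusted p of 0.256 by edgeR over 390 genes. Without control replicate 2 this sum was -0.40 and passed (edgeR adjusted p = 0.0447), while without control replicate 1 it was -0.15 (adjusted p = 0.812).

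Lpl lies on chromosome 8, from 69333143 to 69359586 on the plus strand as the table gives it. Region 2 held most of its counts, with 3060 and 1747 in the knockout libraries, against 1349 and 1440 in the control libraries. After scaling these were 2805 and 2739 normalised counts in knockout and 2179 and 2096 in control. The gap between the groups was wider than the spread inside either. The log2 fold change was 0.38 ± 0.13, or 1.30-fold, with an interval from 0.10 to 0.65 (edgeR adjusted p = 0.119, unadjusted p = 0.00913). This region passed without knockout replicate 2 (adjusted p = 0.0347) and with the regions that overlap no gene left out of the fit (adjusted p = 0.00583), and in neither of these settings did its fold change move by much (0.39 in both). Region 1 had 687 and 593 normalised counts in knockout and 546 and 568 in control, which gave 0.21 ± 0.13 on the log2 scale (edgeR adjusted p = 0.397). It was 0.088 without knockout replicate 1 and 0.30 without knockout replicate 2. Region 3 had 645 and 624 normalised counts in knockout and 507 and 565 in control, which gave 0.24 ± 0.13 on the log2 scale (edgeR adjusted p = 0.308). Both knockout libraries lay above both controls in all 3 regions. With the regions summed, Lpl averaged 4085 ± 2.11 normalised counts in knockout and 3199 ± 25.1 in control (SD, n = 2 each), and the log2 fold change was 0.35 ± 0.15 (edgeR adjusted p = 0.134). Such a small SD can arise between any 2 libraries and does not show how precise the counts are.

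**Figure D1:**
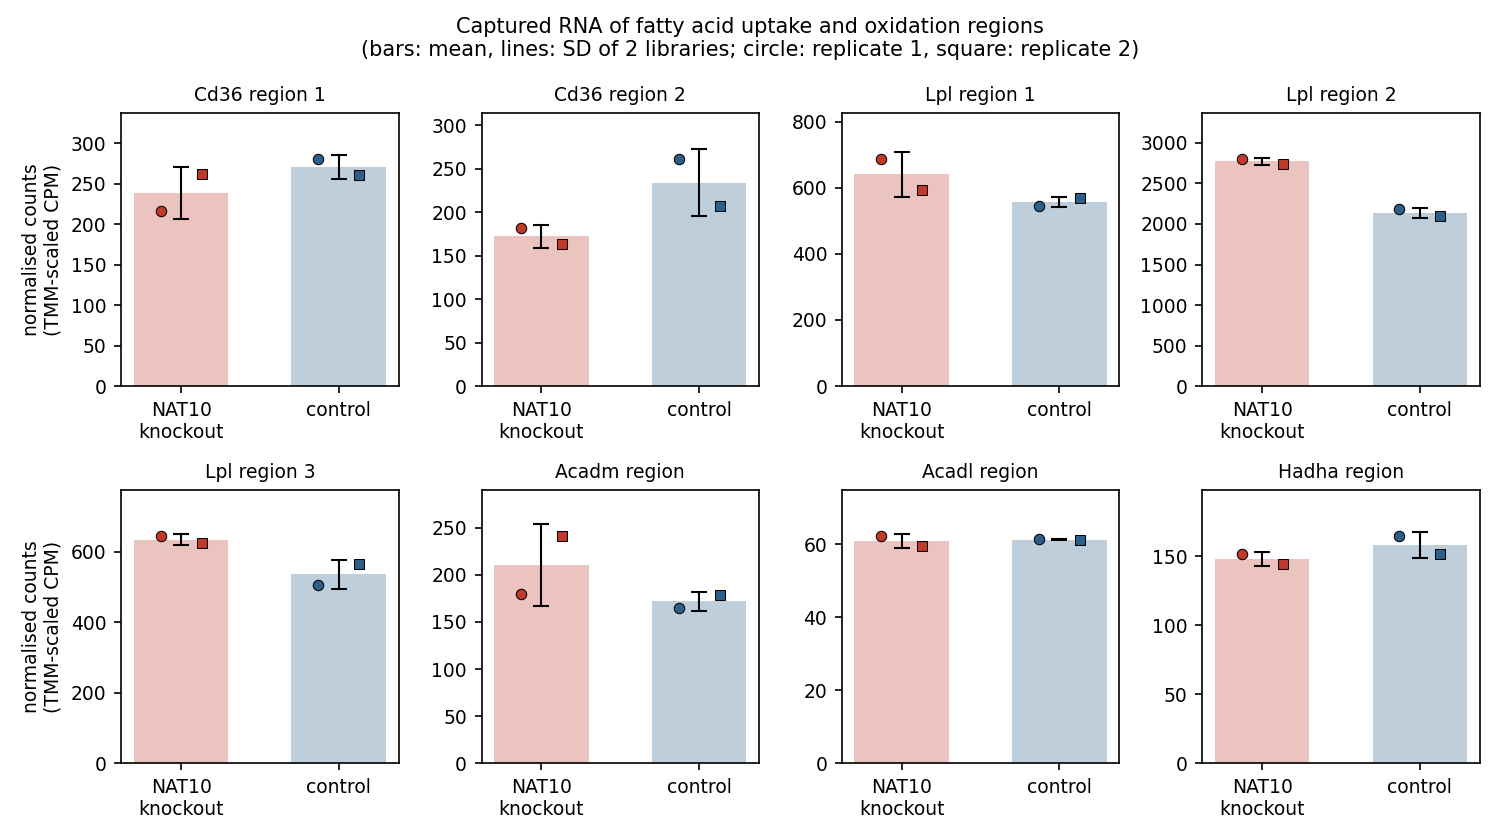
Normalised counts (CPM with TMM factors, linear axis from 0) of each region in the 2 NAT10 knockout libraries (red, left) and the 2 control libraries (blue, right), with bars at the mean and lines for the SD. Lpl region 2 shows knockout at 2805 and 2739 above control at 2179 and 2096, and Cd36 region 2 shows knockout at 181 and 163 below control at 262 and 207.

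The regions of 1 gene did not pass edgeR's test for unequal change between regions of a gene, with adjusted p of 0.656 for Cd36 and 0.677 for Lpl in its gene-wise F form and 0.998 for both in its Simes form. The counts of Cd36 region 2 were 0.839 and 0.623 of those of region 1 in the knockout libraries and 0.931 and 0.793 in the control libraries, so the groups overlapped. Lpl region 1 held 0.245 and 0.216 of the counts of region 2 in knockout, against 0.251 and 0.271 in control. Lpl region 3 held 0.230 and 0.228 of them in knockout, against 0.233 and 0.269 in control. Regions of 1 gene come from the same transcripts and are not separate evidence.

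Acadm, the medium-chain dehydrogenase gene, had 196 and 154 counts in the knockout libraries, against 102 and 123 in the control libraries. After scaling these were 180 and 241 normalised counts in knockout and 165 and 179 in control. The groups did not overlap, but knockout replicate 1 was within 1 normalised count of control replicate 2, and most of the difference lay in knockout replicate 2. The log2 fold change of the region was 0.27 ± 0.19, with an interval from -0.12 to 0.66 (edgeR adjusted p = 0.479). It was 0.06 without knockout replicate 2 and 0.49 without knockout replicate 1. The table lists this region with the gene Gm43400, on chromosome 3 from 153618732 to 153622495. In the GRCm38 annotation Gm43400 is an antisense gene on the plus strand, and 5498 bases lie between it and Acadm, which is on the minus strand. Acadm was the only gene that the region overlapped. The labels do not say whether reads were counted by strand, so the strand these counts came from is not known.

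Acadl, the long-chain dehydrogenase gene, had the fewest counts, 68 and 38 in knockout and 38 and 42 in control. After scaling these were 62.3 and 59.6 normalised counts in knockout and 61.4 and 61.1 in control. The log2 fold change was -0.0041 ± 0.33, with an interval from -0.68 to 0.67 (edgeR adjusted p = 0.997), so at this depth the region could have been changed by more than the Lpl regions were without being seen. If each count were an independent molecule, counting error would give an SD of 12.1% to 16.2% of the count here, against 1.81% to 2.72% for Lpl region 2. Since most counts are even, these are lower limits. The table places Acadl on chromosome 1, from 66869998 to 66902436.

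Hadha had 165 and 92 counts in knockout, against 102 and 104 in control. Its normalised counts were 151 and 144 in knockout and 165 and 151 in control, and knockout replicate 1 differed from control replicate 2 by less than 1. The log2 fold change was -0.09 ± 0.20, with an interval from -0.50 to 0.31 (edgeR adjusted p = 0.825). The table lists this region with the gene 3110082J24Rik, on chromosome 5 from 30308582 to 30311084. In GRCm38 that gene is on the same strand as Hadha, with 12217 bases between them.

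Of the 8 regions, 4 had fitted values above 0, where 51.4% of all regions did. The median log2 fold change was 0.10 over the 8 regions, 0.21 over the 5 uptake regions and -0.0041 over the 3 oxidation regions, against 0.0094 over all 558. Since 3 of the 5 uptake regions were of Lpl, the uptake median is the value of Lpl region 1. Summed per gene, the uptake values were -0.27 for Cd36 and 0.35 for Lpl, so this median does not describe the uptake genes as a group. The groups did not overlap in 6 of the 8 regions, 4 with knockout higher and 2 with knockout lower. Over all regions they did not overlap in 47.5%, with knockout higher in 25.3% and lower in 22.2%. At an unadjusted p below 0.05, 2 of the 8 regions passed by edgeR (Cd36 region 2 and Lpl region 2), as did 106 of the 558, and the DESeq2 Wald test also passed none of the 8 after adjustment. Per gene, none of the 5 passed by edgeR, where 4.87% of 390 genes or merged genes did. Only Lpl was below an unadjusted p of 0.05 per gene, as were 80 of the 390, and DESeq2 passed 0 of the 5.

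**Figure D2:**
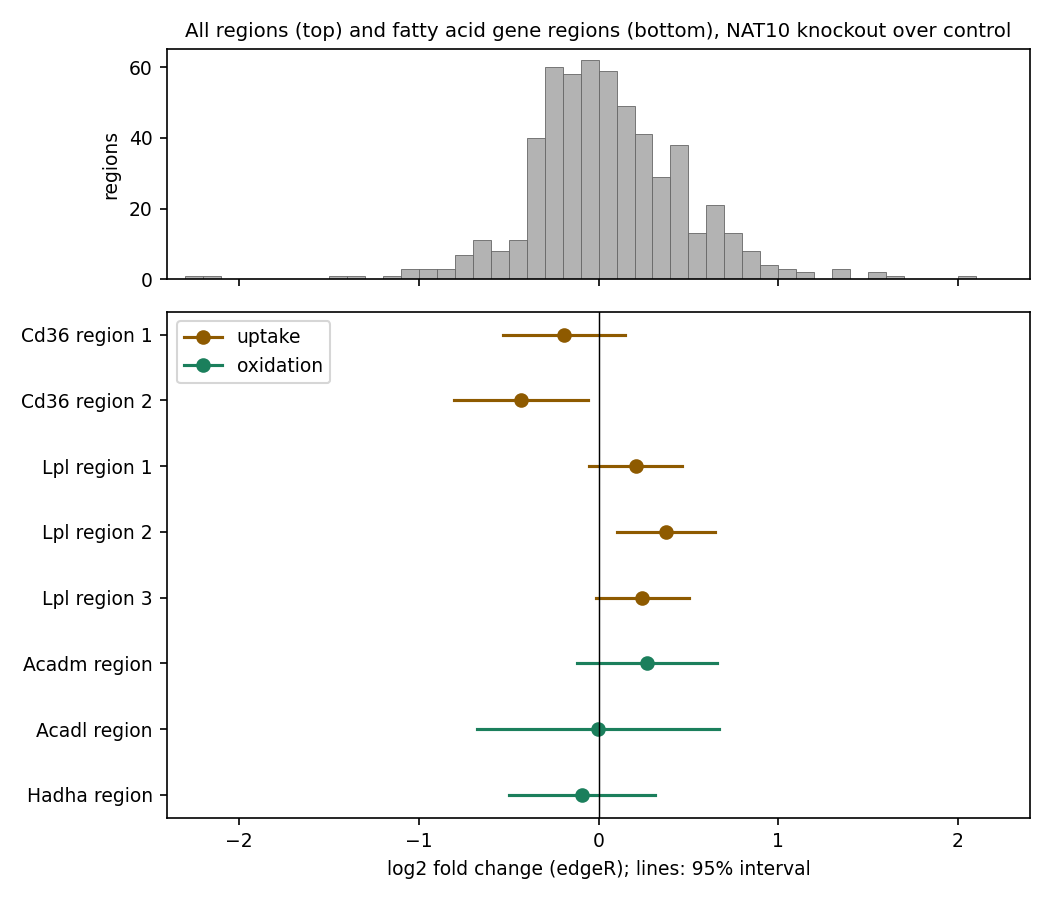
Top, number of regions (vertical axis) by log2 fold change of NAT10 knockout over control for all 558 regions. Bottom, on the same horizontal axis, the log2 fold change (point) and 95% interval (line) of each uptake region (brown) and oxidation region (green). The 2 Cd36 regions lie below 0 at -0.19 and -0.43 and the 3 Lpl regions above it at 0.21, 0.38 and 0.24, and all 8 lie inside the spread of the other regions.

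Ratios of counts within a library do not depend on how libraries are scaled. Lpl had 10.4 and 9.31 counts for each count of Cd36 in the knockout libraries, against 5.96 and 6.91 in the control libraries. The ratio was 1.53-fold higher in knockout, from geometric means, and the groups were well apart. Acadm had 0.452 and 0.568 counts for each count of Cd36 in knockout, against 0.304 and 0.383 in control, a 1.49-fold difference. The ratio of Hadha to Cd36 was 0.380 and 0.339 in knockout and 0.304 and 0.324 in control. The ratio of Acadl to Cd36 was 0.157 and 0.140 in knockout and 0.113 and 0.131 in control. So each of the other 4 genes stood higher relative to Cd36 in both knockout libraries than in both controls. This was common in the table: the ratio to Cd36 was higher in both knockout libraries for 46.6% of 388 other genes or merged genes with counts in every library. It was lower in both for 7.22%. The ratios describe how a pair of genes differed between libraries, and since region lengths were not used they do not compare levels of the genes.

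**Figure D3:**
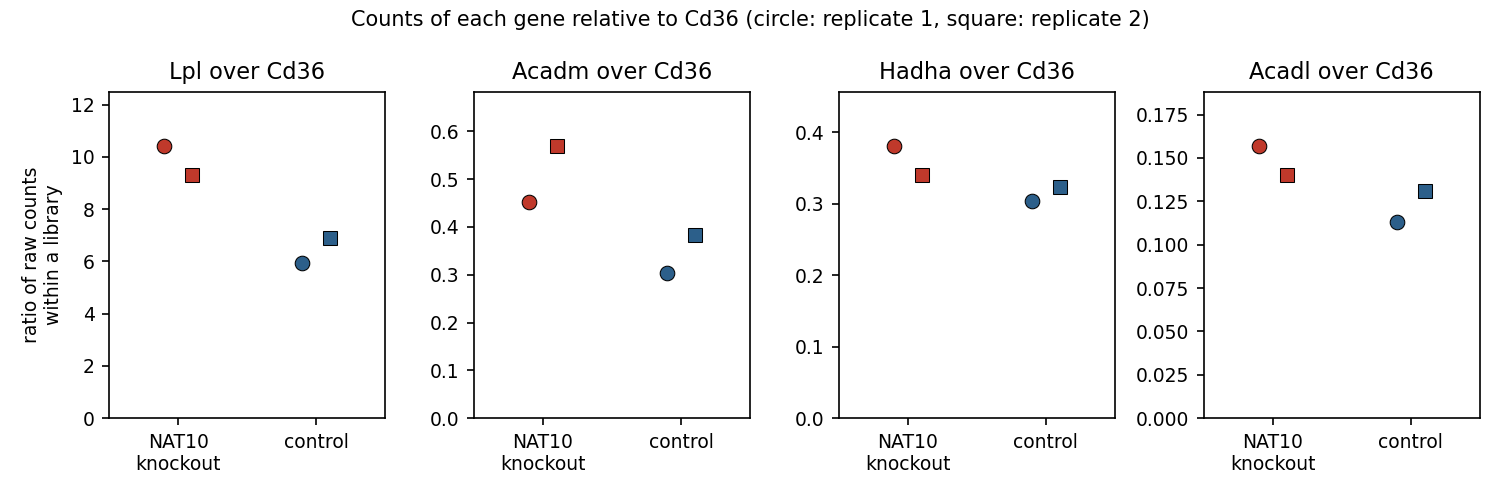
Ratio of raw counts of Lpl, Acadm, Hadha and Acadl to those of Cd36 within each library (vertical axes from 0, no unit), with the 2 NAT10 knockout libraries in red on the left and the 2 control libraries in blue on the right. The ratio of Lpl to Cd36 was 10.4 and 9.31 in knockout, above 5.96 and 6.91 in control.

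Relative to Lpl, Hadha stood lower, at 0.0366 and 0.0365 counts for each Lpl count in knockout, against 0.0510 and 0.0469 in control. Acadl stood at 0.0151 in both knockout libraries, against 0.0190 and 0.0189 in the controls. The ratio to Lpl was lower in both knockout libraries for 52.8% of the other genes. Acadm over Lpl overlapped between groups, at 0.0434 and 0.0610 in knockout and 0.0510 and 0.0555 in control. Between the 10 pairs of the 5 genes, ratios did not overlap in 8, where 47.5% of all 75466 pairs of genes in the table did not. The 10 pairs share genes, 4 of them Cd36, and are not independent of each other. A difference in log2 ratio as large as that of Lpl to Cd36 (0.62) was found in 29.9% of all pairs. The geometric mean of the oxidation genes over that of the uptake genes gave 0.0929 and 0.0984 in knockout and 0.0895 and 0.0963 in control. These groups overlapped. No test is given for these ratios, since 2 libraries against 2 cannot reach a small p by permutation.

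Other genes of the pathway were read from fixed lists. Of 16 genes of fatty acid uptake and trafficking 3 were in the table, of 6 of the carnitine shuttle 1, of 19 of beta-oxidation 4, of 10 of storage and lipolysis 1 and of 21 regulators and neighbouring enzymes 2. The genes not named were not analysed here. By the gene test 1 of these rose and 1 fell, both among the regulators and neighbours, where 2.82% and 2.05% of all genes did. Pdk4, the kinase that holds back pyruvate dehydrogenase, fell to 39.8 and 71.3 normalised counts in knockout, against 225 and 244 in control (log2 fold change -2.15 ± 0.23, edgeR adjusted p = 4.03e-17). Oxct1, which activates ketone bodies, rose to 586 and 650 normalised counts in knockout, against 305 and 364 in control (0.88 ± 0.14, edgeR adjusted p = 1.44e-07), and lost its call without knockout replicate 2 (0.80, adjusted p = 0.0549) and with scaling to 18S (1.04, adjusted p = 0.142).

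The others did not pass. Got2, a mitochondrial aminotransferase that is also described as a fatty acid binding protein of the plasma membrane, had 221 and 308 normalised counts in knockout and 170 and 205 in control. Its log2 fold change was 0.46 ± 0.17 (edgeR adjusted p = 0.0831), and it passed without control replicate 2 (0.59, adjusted p = 0.0496) and without knockout replicate 1 (0.70, adjusted p = 0.0254), while it was 0.34 without control replicate 1 (adjusted p = 0.519) and 0.23 without knockout replicate 2 (adjusted p = 0.575). Its pseudogene Got2-ps1 was counted beside it, at 251 and 212 normalised counts in knockout and 309 and 240 in control, so the division of reads between them is uncertain. The table lists the regions of Got2, Oxct1, Crat and Dgat2 each under the name of another gene (Gm45760, Gm15632, Dolpp1 and Gm45185). A listed gene need not overlap its region, as with Acadm and Hadha. Whether these listed genes do was not checked, so their part in the counts is not known. Acat1, the mitochondrial acetyl-CoA acetyltransferase, had 61.5 and 55.1 normalised counts in knockout and 25.7 and 48.8 in control (0.64 ± 0.43, edgeR adjusted p = 0.429), and its fold change was 0.26 without control replicate 1 and 1.17 without control replicate 2. Crat, the carnitine acetyltransferase, stood at 186 and 162 normalised counts in knockout and 177 and 145 in control, with overlapping groups (0.13 ± 0.20, edgeR adjusted p = 0.741). Dgat2, which makes triglycerides, stood at 98.6 and 89.1 normalised counts in knockout and 101 and 63.1 in control, also overlapping (0.21 ± 0.28, edgeR adjusted p = 0.709).

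Cd36 is also made by endothelial cells, adipocytes and macrophages, and Lpl by adipocytes and macrophages. Of the fixed markers, 0 of 11 endothelial, 0 of 9 adipocyte and 0 of 6 fibroblast genes were among the overlapped genes, so these cells could not be followed. Of 11 macrophage markers, Cd74 and Apoe were overlapped. Their summed level was 274 and 295 normalised counts in knockout and 375 and 323 in control, with Apoe lower (-0.65 ± 0.17, edgeR adjusted p = 0.00319) and Cd74 at 0.65 ± 0.29 (edgeR adjusted p = 0.172). Apoe lost its call without control replicate 1 (-0.42, edgeR adjusted p = 0.478), without knockout replicates 1 and 2 in turn (-0.60 and -0.71, adjusted p = 0.105 and 0.149), with totals alone (-0.53), with totals without the 2 highest regions (-0.55), with scaling to 18S (-0.47) and by DESeq2 (-0.71). Cd74 passed without control replicate 2 (1.09, edgeR adjusted p = 0.0496) and was 0.32 without control replicate 1 (adjusted p = 0.812). Of 5 atrial markers, Nppa and Stard10 were overlapped, with a summed level of 438 and 470 normalised counts in knockout and 2064 in each control. Nppa, merged with Gm13054, fell (-2.22 ± 0.14, edgeR adjusted p = 3.41e-49). It made up most of this sum, at 423 and 437 in knockout and 1997 and 2015 in control. Stard10, merged with Gm20476, had 14.5 and 32.4 in knockout and 67.5 and 48.8 in control, and did not pass (-1.38 ± 0.53, edgeR adjusted p = 0.0983). Of 7 smooth muscle and pericyte markers, Rgs5 and Abcc9 were overlapped and summed to 149 and 193 normalised counts in knockout and 83.6 and 152 in control. Abcc9 had 47.0 and 63.2 in knockout and 6.43 and 25.8 in control (1.71 ± 0.57, edgeR adjusted p = 0.0522). Rgs5 overlapped between groups (0.16 ± 0.25, edgeR adjusted p = 0.741). The single erythroid marker of 4, Hba-a2, had 53.4 and 19.4 normalised counts in knockout and 32.2 and 44.5 in control. The single skeletal muscle marker of 6, Ckm, in a region shared with A930016O22Rik, had 668 and 661 in knockout and 777 and 667 in control. The mitochondrial list was overlapped in 5 of 6 transcripts, in 2 merged units that summed to 223567 and 313993 normalised counts in knockout and 284224 and 257770 in control. The part of these cells in the values of Cd36 and Lpl was not tested.

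**Figure D4:**
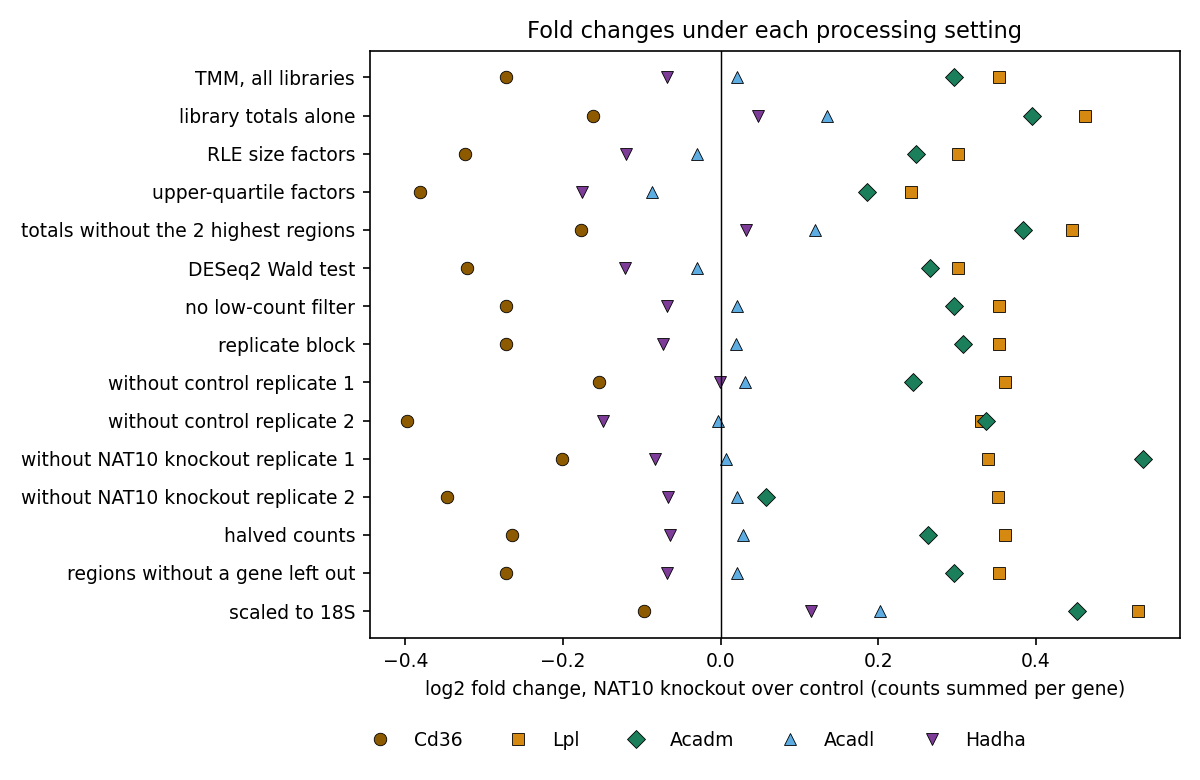
Log2 fold change of NAT10 knockout over control (horizontal axis) for counts summed per gene under each processing setting (rows), with 1 symbol per gene. Cd36 stays below 0, between -0.40 and -0.10, and Lpl stays above 0, between 0.24 and 0.53, in the 14 alternatives, while Acadl and Hadha lie on both sides of 0.

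In the 14 alternatives run, summed Cd36 had fitted values from -0.40 to -0.10, summed Lpl from 0.24 to 0.53 and Acadm from 0.06 to 0.54. Acadl lay between -0.09 and 0.20 and Hadha between -0.18 and 0.11, so their directions depended on the setting. Scaling moved the genes together: the median of all regions was 0.01 with TMM, 0.15 with library totals alone, 0.13 with totals without the 2 highest regions and 0.22 with scaling to 18S. The difference between the log2 fold changes of Lpl and Cd36 was 0.62 under both TMM and totals alone and 0.63 when scaled to 18S. Without control replicates 1 and 2 in turn it was 0.51 and 0.73, and without knockout replicates 1 and 2 in turn it was 0.54 and 0.70.

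The authors' deposited table carries its own comparison. Its column name gives no direction, and a positive log2 fold change was taken here to mean higher in control. In the authors' deposited table all 8 regions had negative values, from -2.45 for Hadha to -0.54 for Lpl region 1. Read in that direction, every one of them was higher in knockout. Its p-values, also from the authors' deposited table, ran from 0.0212 (Lpl region 3) to 0.198 (Lpl region 1), with a q-value of 1 for each of the 8. These folds were matched neither by the raw counts beside them nor by counts scaled to the table's totals. For Cd36 region 1 the authors' deposited table gave -1.92, while the raw counts gave -0.19 and the counts scaled to the table's totals gave 0.06, in the same direction of control over knockout. For Cd36 region 2 the values were -0.67 in the authors' deposited table, 0.0095 from raw counts and 0.29 from scaled counts. For Hadha they were -2.45 in the authors' deposited table, -0.32 from raw counts and -0.04 from scaled counts. Over all 558 regions, the authors' deposited table and the raw counts had the same sign in 444. Raw counts were higher in knockout in 506 and the authors' values were negative in 429, so many shared signs would arise without any link. The median was -0.99 in the authors' deposited table and -0.43 in raw counts.

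**Figure D5:**
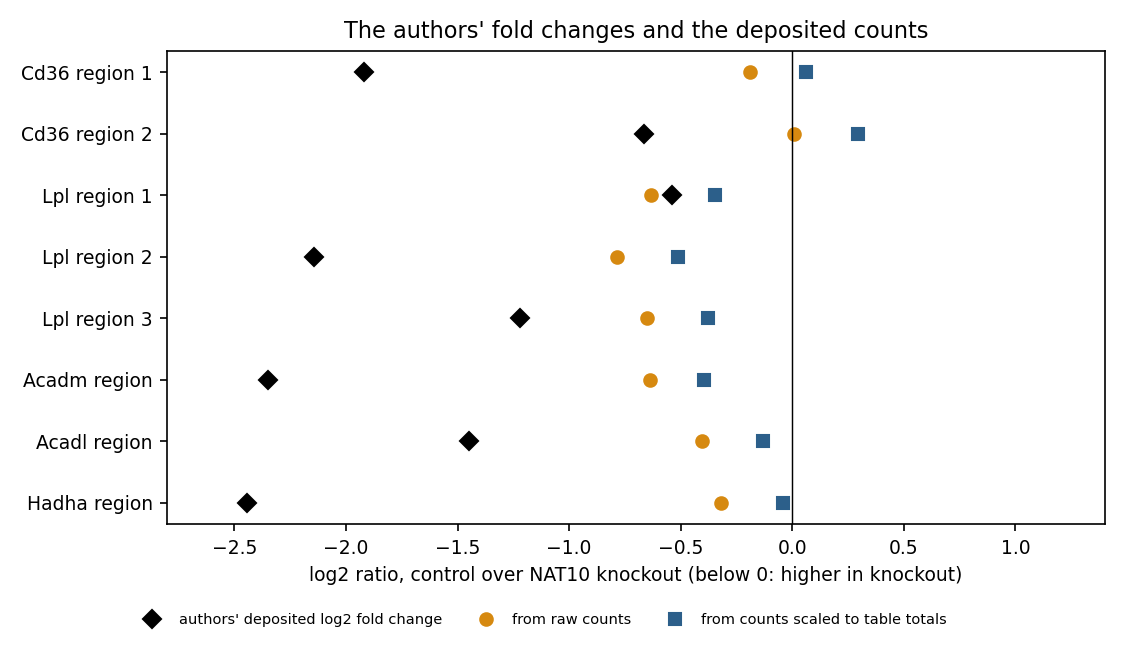
Log2 ratio of control over NAT10 knockout (horizontal axis, below 0 means higher in knockout) for each region, as given in the authors' deposited table (diamonds), from raw mean counts (circles) and from counts scaled to the table's totals (squares). For the diamonds, the direction of control over knockout was assumed. The deposited values lie further below 0 than the raw counts in all regions but Lpl region 1.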

How the data were processed

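Per the labels' protocols, RNA was extracted from frozen hearts with Trizol and 1 ug of it went into ribosomal RNA removal and library preparation. FastQC and Salmon appear in the submitters' processing notes with no version or role, and mm10 is named there as the genome build. The region caller and read counter were not given in the sources used here, nor how replicates were handled. The deposited values are whole-number counts per region, with no normalisation named in the file headers. The authors' log2 fold change, p-value and q-value were deposited in the same table.

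The table had 652 lines for 558 distinct regions, of which 65 overlapped no gene (22.2% to 24.6% of counts). Counts were tested in R 4.3.3 with edgeR 4.0.16 (filterByExpr removed 0 regions, TMM factors of 1.18 and 0.92 in knockout and 0.92 and 1.00 in control, robust dispersion, glmQLFit, glmQLFTest). P-values were adjusted over all regions by Benjamini-Hochberg, with a threshold of 0.05. SE was taken as the fold change over the root of F. Counts were also summed per gene, with genes of the same regions merged, and unequal regions were tested with diffSpliceDGE. DESeq2 1.42.0 was an alternative.

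Separate animals are not stated in the labels, and p-values then cover only the spread between these 4 libraries, which may be technical. Replicates differed beyond counting noise (chi-square over its degrees of freedom 16.3 in knockouts and 4.51 in controls), so none were merged. The members and lists were chosen with earlier results of these data known. All regions of the 5 genes and every gene of the pathway lists found in the table are named. The mitochondrial transcripts of the marker lists are given only as a sum. Coding sequences are from GENCODE M21 (GRCm38), the longest per gene.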

Additional observations from a re-analysis of the deposited data

How the results depend on the processing

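Of 182 values of the 5 genes and 8 regions under 14 alternatives, 162 kept their direction and their side of the threshold, 17 changed sign and 3 gained a call. Some of the 162 could not change. The filter removed 0 regions, so the fit without it repeated the main values. Leaving out regions without a gene altered only the library totals of the gene fit. With scaling to 18S, chosen after seeing the data, Cd36 region 1 stood at 0.00073, the Acadl region at 0.20 and the Hadha region and gene at 0.11 each. With library totals alone the Acadl region was 0.14 and the Hadha region and gene 0.048 each, and with totals without the 2 highest regions they were 0.12, 0.032 and 0.032. The Acadl region was 0.0096 with halved counts and 0.0084 with regions without a gene left out, and the Acadl gene -0.030 by RLE size factors and by the DESeq2 Wald test and -0.087 by upper-quartile factors. Lpl region 2 gained a call with regions without a gene left out (0.39).

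Leaving out 1 library at a time, with the lone library of a group taken to vary like the other group, gave 0.34 to 0.40 for Lpl region 2, -0.042 to 0.025 for the Acadl region, -0.40 to -0.15 for the Cd36 gene, -0.0026 to 0.031 for the Acadl gene, -0.022 to 0.28 for Crat and -0.11 to 0.58 for Dgat2. The regions called numbered 13 higher and 9 lower, and 6 to 14 higher and 4 to 24 lower with a library left out (lower: 4 without knockout replicate 1 and 24 without knockout replicate 2; higher: 6 without control replicate 2). They numbered 5 and 3 with totals alone, 11 and 3 with totals without the 2 highest regions, 2 and 3 by the DESeq2 Wald test, and 4 and 2 when scaled to 18S. With the replicate number as a replicate block, 0 were higher and 1 lower. The labels do not pair the libraries, and same-numbered libraries had a correlation of deviations of -0.16. The cause of these changes was not tested.

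With 2 libraries a group, the differences of Cd36 and Lpl did not pass the main test. This held also for Lpl region 2, which had the most counts of the regions followed (edgeR adjusted p = 0.119). With intervals as wide as that of Acadl, differences of that size were not detectable in the regions with few counts either.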
